A study of Mus musculus with 6 samples.

Results

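Desmosomes are spot-like junctions that tie the keratin filaments of neighbouring epithelial cells together, and they give stratified epithelia such as the lining of the esophagus their resistance to tearing. Their membrane-spanning part is built from 2 families of cadherins, the desmogleins (Dsg genes) and the desmocollins (Dsc genes), which bind their counterparts on the next cell. Inside the cell, plakoglobin (Jup) and the plakophilins (Pkp genes) form a plaque on the cadherin tails, and desmoplakin (Dsp) links that plaque to keratin. In the heart, desmosomes of the intercalated disc hold muscle cells together with some of the same proteins. The 10 genes described here are the desmogleins Dsg1a, Dsg2 and Dsg3, the desmocollins Dsc2 and Dsc3, the plaque genes Pkp1, Pkp3, Jup and Dsp, and Perp, which encodes a small membrane protein needed for desmosome assembly in stratified epithelium. They were taken from a list of symbols and matched by Ensembl identifier among 54232 genes. All 10 were found, and all 10 passed the filter on low counts, which left 15763 genes for testing.

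Read counts came from 6 esophagus libraries of mice exposed to the carcinogen 4-nitroquinoline 1-oxide (4-NQO), a chemical that gives squamous tumors of the esophagus. Every mouse, in either group, had 100 µg/ml of 4-NQO in its drinking water for 16 weeks from 8 weeks of age and plain water for the next 12 weeks. Over the last 2.5 weeks the mice of one group received intraperitoneal injections of 10 µg DTA-1, an antibody that activates the T cell co-receptor GITR, and those of the other an isotype control. Peeling enriched the tissue for invading cells before polyA RNA was extracted, so that each library is a bulk mixture. The sources used here give neither strain nor sex. Each group has 3 libraries, which the labels do not tie to separate animals, so the p-values cover only the scatter among these libraries, some of which may be technical. The comparison asks how desmosome transcripts of the diseased tissue differ after GITR agonism.

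Libraries held 23147873 to 29065162 counts. Levels are in CPM, the usual depth-normalised read count, on library sizes scaled by TMM, a method that corrects for differences in library composition. Tests are the quasi-likelihood test of edgeR with Benjamini-Hochberg adjustment over all genes tested. Fold changes are log2 values, negative where DTA-1 libraries were lower. A gene with 3 reads lies at 0.108 to 0.141 CPM, counting error only, and the 10 desmosome genes had 97 to 59547 reads per library.

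No desmosome gene passed the test, but all 10 stood far lower in DTA-1 replicates 2 and 3 than in any isotype library, while the values of DTA-1 replicate 1 were inside or above the range of the isotype libraries. Together the 10 genes took 0.889%, 0.855% and 0.683% of counts in isotype replicates 1, 2 and 3. They took 0.828%, 0.178% and 0.237% in DTA-1 replicates 1, 2 and 3. All 10 fold changes were negative, where 52.9% of all genes tested were, with a median of -0.80 against -0.03 for all genes. The median turned positive, to 0.11 with a score of muscle markers and 0.71 with one of squamous markers as covariate in the edgeR fit. Both scores were measured on the same 6 libraries, and 0 genes were called with either. The muscle score was 11.05 to 11.76 in isotype and 11.92 to 12.48 in DTA-1 libraries. The squamous score was 8.54 to 8.92 in isotype and 6.98 to 8.34 in DTA-1 libraries. Neither score overlapped between groups, so these fits cannot separate the score from the treatment. The adjusted p in edgeR lay between 0.39 (Dsg2) and 0.664 (Dsg1a). The count of 0 of 10 passing genes stands beside 0% of all genes in either direction. At an unadjusted p under 0.05 edgeR counted 1 of the 10 as lower, Dsg2, against 7.52% of all genes. Limma-voom called 0 of 10, with 2 lower at the unadjusted level against 8.49% of all genes, and DESeq2 called 0 of 10 against 0.852%. In bulk tissue, fewer epithelial cells and less desmosome RNA per cell cannot be told apart.

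**Figure D1:**
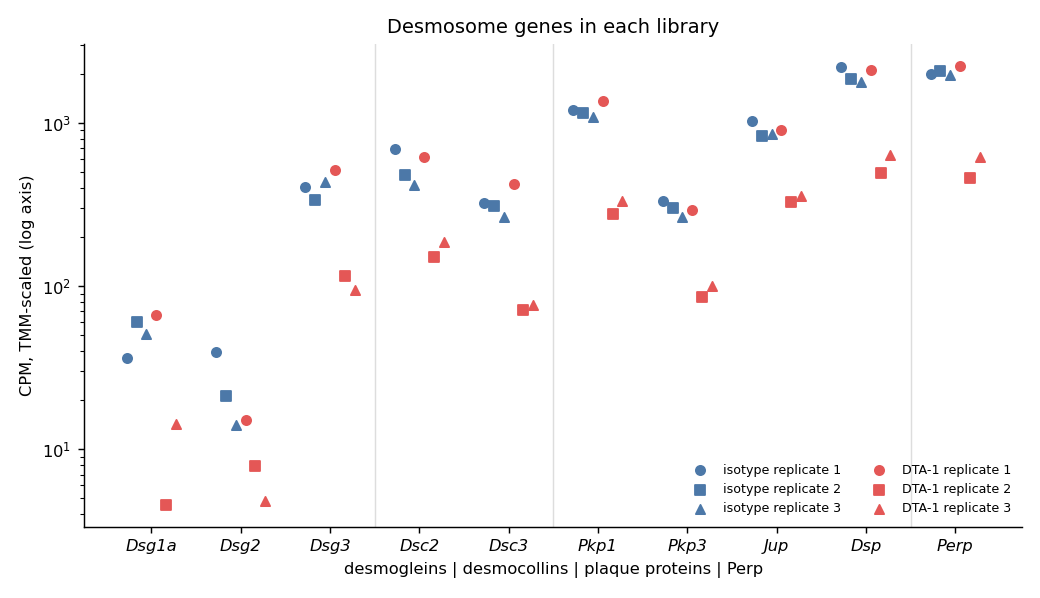
Level of each desmosome gene in CPM (log axis) in the 3 isotype (blue) and 3 DTA-1 (red) libraries, 1 point per library. DTA-1 replicates 2 and 3 lie below every isotype library for all 10 genes, and DTA-1 replicate 1 lies within or above the isotype range.

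The desmogleins mark different layers and cell types. Dsg3, the target of the autoantibodies of pemphigus vulgaris and in the epidermis a gene of the lower layers, reached 406, 339 and 437 CPM in isotype replicates 1, 2 and 3. In DTA-1 replicates 1, 2 and 3 it stood at 513, 115 and 94.5 CPM. The highest and the lowest of the 6 libraries were thus both DTA-1 libraries, and the groups overlapped. The fold change was -0.71 ± 0.63 (SE), with an adjusted p of 0.605 in edgeR.

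Dsg1a, a desmoglein of the upper layers, stood at 36.2, 60.2 and 51.2 CPM in isotype and 66.4, 4.56 and 14.3 CPM in DTA-1 replicates 1, 2 and 3. Its 14.5-fold span from DTA-1 replicate 1 to DTA-1 replicate 2 was the widest of the 10 genes. The fold change was -0.79 ± 0.83 (SE). Mice carry several near-identical Dsg1 genes, and 31.6% of all 50-base words of the annotated Dsg1a transcripts also occur in those of Dsg1b. Reads of the pair can therefore have been split or dropped in counting, and the level of Dsg1a is uncertain.

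Dsg2, the desmoglein of simple epithelia and heart and a minor one in stratified epithelium, had the lowest mean CPM of the 10 in either group, though Dsg1a was lower in isotype replicate 1 and DTA-1 replicate 2. It stood at 39.2, 21.3 and 14 CPM in isotype and 15.2, 7.95 and 4.83 CPM in DTA-1 replicates 1, 2 and 3. DTA-1 replicate 1 lay just above isotype replicate 3, so the groups overlapped by this pair alone. The fold change of -1.42 ± 0.52 (SE) was the most negative of the 10, with an adjusted p of 0.39 in edgeR and 0.15 in DESeq2. Without isotype replicate 1, where Dsg2 was highest, the fold change was -0.91. DESeq2 called Dsg2 lower without isotype replicate 3 (adjusted p = 0.0377), where it called 2.05% of all genes lower.

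The desmocollins followed the same pattern. Dsc2, the more abundant of the pair, stood at 689, 480 and 417 CPM in isotype and 617, 151 and 187 CPM in DTA-1 replicates 1, 2 and 3. Dsc3, found mainly in the basal layers of stratified epithelium, stood at 325, 309 and 265 CPM in isotype and 421, 71 and 76.9 CPM in DTA-1 replicates 1, 2 and 3. For Dsc3 the first DTA-1 library was above all others, whereas for Dsc2 it was below isotype replicate 1. The fold changes were -0.73 ± 0.55 (SE) for Dsc2 and -0.66 ± 0.68 for Dsc3, with adjusted p of 0.549 and 0.656 in edgeR.

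The 5 cadherin genes lie in the desmosomal cadherin cluster on chromosome 18 (GRCm38), from the start of Dsc3 at 19960930 to the end of Dsg2 at 20604521. The plaque genes and Perp lie apart on 5 other chromosomes. Pkp1 is on chromosome 1 (135871395 to 135919207), Pkp3 on chromosome 7 (141078218 to 141090510), and Jup on chromosome 11 (100368958 to 100397763). Dsp is on chromosome 13 (38151294 to 38198577) and Perp on chromosome 10 (18845020 to 18857073). Genes in the cluster and genes outside it thus shared the pattern across libraries.

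The plaque genes link the cadherins to the cytoskeleton. Dsp, the link from the plaque to keratin, stood at 2191, 1870 and 1772 CPM in isotype and 2116, 491 and 635 CPM in DTA-1 replicates 1, 2 and 3. Jup, which binds the cadherin tails and also serves adherens junctions, stood at 1027, 837 and 857 CPM in isotype and 906, 330 and 356 CPM in DTA-1 replicates 1, 2 and 3. In Dsp and Jup alike, DTA-1 replicate 1 was inside the isotype range and the other DTA-1 libraries well below it. The fold changes were -0.85 ± 0.56 (SE) for Dsp and -0.77 ± 0.42 for Jup, with adjusted p of 0.504 and 0.434 in edgeR.

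Pkp1, a plakophilin of stratified epithelium that strengthens the plaque, stood at 1200, 1155 and 1089 CPM in isotype and 1371, 277 and 332 CPM in DTA-1 replicates 1, 2 and 3. Pkp3, a plakophilin present in most epithelial layers, stood at 334, 301 and 264 CPM in isotype and 291.7, 85.5 and 100.5 CPM in DTA-1 replicates 1, 2 and 3. Pkp1 was highest in DTA-1 replicate 1, while Pkp3 was highest in isotype replicate 1. The fold changes were -0.80 ± 0.61 (SE) for Pkp1 and -0.91 ± 0.47 for Pkp3, with adjusted p of 0.553 and 0.422 in edgeR.

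Perp, a transcriptional target of p63 and p53, had the steadiest isotype values of the 10. Its level was 1999, 2077 and 1982 CPM in isotype replicates 1, 2 and 3, a coefficient of variation of 2.52%. In DTA-1 replicates 1, 2 and 3 it stood at 2238, 457 and 617 CPM, a coefficient of variation of 89.2%. The DTA-1 values thus lay on either side of the narrow isotype range. The fold change was -0.87 ± 0.59 (SE), with an adjusted p of 0.515 in edgeR.

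Promoter sequences were at hand for 2 of the 10 genes, the plaque genes Jup and Dsp, and are shown as the starts of these members. Each is the 250 bases before the start of transcription in RefSeq, read 5′ to 3′ on the gene's strand (GRCm38.p6). The Jup stretch is chr11:100397791-100398040, minus strand, and the Dsp stretch is chr13:38151044-38151293, plus strand. Capitals mark GC boxes, searched as GGGCGG on either strand.
Jup: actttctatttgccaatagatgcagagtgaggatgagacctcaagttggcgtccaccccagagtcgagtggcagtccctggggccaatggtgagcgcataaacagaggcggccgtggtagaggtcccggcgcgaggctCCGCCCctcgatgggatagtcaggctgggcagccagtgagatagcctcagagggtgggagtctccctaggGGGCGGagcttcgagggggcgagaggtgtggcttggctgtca
Dsp: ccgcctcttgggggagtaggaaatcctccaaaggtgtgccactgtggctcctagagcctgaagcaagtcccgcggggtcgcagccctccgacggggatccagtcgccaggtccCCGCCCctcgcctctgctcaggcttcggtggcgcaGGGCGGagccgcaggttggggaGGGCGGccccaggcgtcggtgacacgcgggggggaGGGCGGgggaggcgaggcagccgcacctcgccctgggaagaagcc

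The Jup stretch held 2 GC boxes and the Dsp stretch 4, and 32.7% of 32841 mouse promoters of the same length held at least 1. This motif was picked after the letters had been seen. The stretches were rich in GC, at 62% for Jup and 72.4% for Dsp, against a median of 52.4% over all promoters. Neither held a grainyhead-like site (AACNGGTT, in 1.79% of all promoters), a strict p53 family site (0.49%) or an AP-1 site (TGANTCA, 6.75%). Neither held the E-box of Snail and Zeb factors (CACCTG, 17.2%) or a TATA box (TATAAA, 12.4%), each searched on both strands. A match describes letters, not binding, and a motif missing here says only that its letters are not in this window.

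Between genes, levels are compared per kilobase of merged exons. In isotype libraries Perp was far ahead at 1035 ± 26.1 CPM per kilobase (SD, n = 3), followed by Pkp1 (228.5 ± 11.2), Dsp (201.3 ± 22.7) and Jup (140.9 ± 16.2). Dsc2 (100.2 ± 27), Pkp3 (82.9 ± 9.74), Dsg3 (56.5 ± 7.13) and Dsc3 (55.4 ± 5.69) formed the middle of the order. Dsg1a (8.65 ± 2.14) and Dsg2 (3.01 ± 1.57) were lowest, in CPM per kilobase. The isotype values of Pkp1 and Dsp overlapped, as did those of Jup and Dsc2, of Dsc2 and Pkp3, and of Dsg3 and Dsc3. The other neighbours in this order did not overlap. Among Dsg1a, Dsg2 and Dsg3, the last was thus the most abundant per length, and Dsc2 stood above Dsc3.

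Ratios to Dsp show how the mix of desmosome transcripts varied. The log2 ratio of Perp to Dsp, per kilobase, lay between 2.17 and 2.47 over all 6 libraries, and that of Pkp1 to Dsp between 0.01 and 0.32. For Pkp3 it lay between -1.44 and -1.10, and for Dsc2 between -1.22 and -0.80. Wider ranges were seen for Dsg3 (-2.28 to -1.55) and Dsc3 (-2.21 to -1.49). Over the same libraries Dsp itself spanned 4.46-fold. The ratio of Jup to Dsp was -0.51, -0.57 and -0.46 in isotype and -0.64, 0.01 and -0.25 in DTA-1 replicates 1, 2 and 3, so it was highest in the 2 libraries where the levels of both genes were lowest. Dsg1a and Dsg2 departed most, with ratios to Dsp from -5.99 to -4.19 and from -6.90 to -5.58. The groups overlapped in each of the 9 ratios to Dsp.

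**Figure D2:**
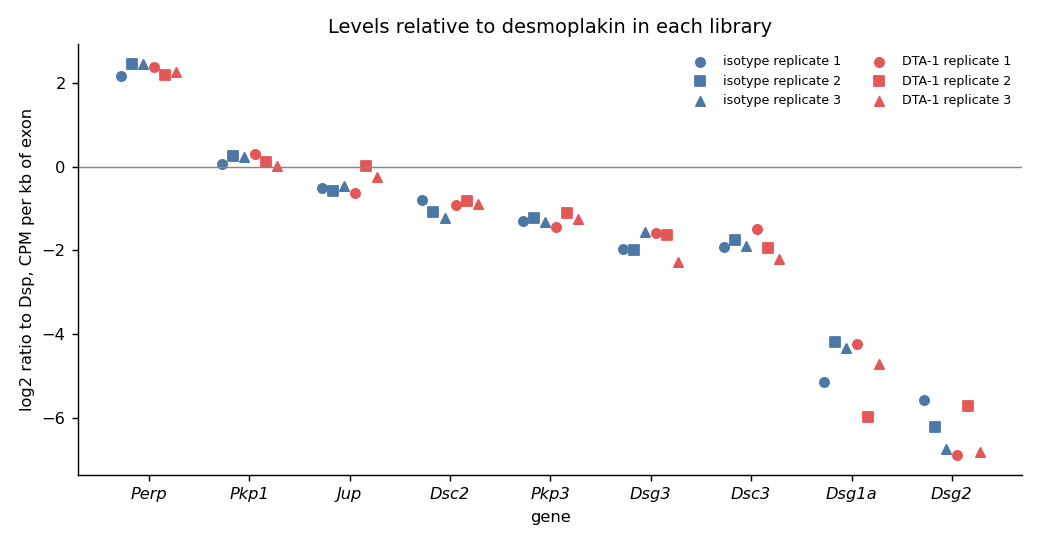
Log2 ratio of each desmosome gene to Dsp, on CPM per kilobase of exon, 1 point per library (isotype blue, DTA-1 red). Perp, Pkp1, Pkp3 and Dsc2 keep nearly the same ratio in all 6 libraries, while Dsg1a and Dsg2 spread by over 1 unit.

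The genes typical of stratified epithelium were set beside those also used by heart muscle. The epithelial genes Dsg3, Pkp1 and Perp had fold changes of -0.71 to -0.87, and the shared genes Dsp, Jup and Dsg2 of -0.77 to -1.42. The mean log2 CPM of the epithelial genes exceeded that of the shared genes by 1.15, 1.53 and 1.82 in isotype and by 1.92, 1.16 and 1.38 in DTA-1 replicates 1, 2 and 3. The mean of this excess was 1.50 ± 0.33 (SD, n = 3) for isotype and 1.49 ± 0.39 for DTA-1, so the subsets differed between groups by less than the spread between replicates. That spread depends much on Dsg2, which weighs as much in the shared mean as Dsp or Jup. Within isotype Dsg2 spanned 2.79-fold, against 1.24-fold for Dsp and 1.23-fold for Jup. In DTA-1 replicate 1 all 3 epithelial genes lay above the isotype range, and all 3 shared genes within it. Of all genes tested, 21.6% lay above the isotype range in that library.

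Muscle transcripts were measured beside them. The 12 striated muscle markers, 11 of them with positive fold changes and none at 0 in all libraries, took 6.45%, 5.08% and 8.74% of counts in isotype and 9.27%, 12.8% and 10.7% in DTA-1 replicates 1, 2 and 3. DTA-1 replicate 2, with the largest muscle share, had the lowest Dsp and Jup of all 6 libraries. The muscle share of DTA-1 replicate 1 (9.27%) also exceeded that of every isotype library, yet its Dsp and Jup were inside the isotype range. The 7 cardiac muscle markers summed to 622.3, 468.2 and 720.9 CPM in isotype and 585.7, 1447 and 1434 CPM in DTA-1 replicates 1, 2 and 3. This sum was highest in the same libraries as the striated muscle share, and none of the 7 was at 0 in all libraries. The list as a whole did not follow the sum. Of the 5 tested cardiac markers 3 had positive and 2 negative fold changes (median 0.04). Their mean log2 CPM was 3.48, 3.81 and 4.32 in isotype and 4.00, 3.16 and 4.18 in DTA-1 replicates 1, 2 and 3. Most of the sum was Actc1, cardiac actin, at 302.8 to 514.6 CPM in isotype and 382.4, 1296 and 1158 CPM in DTA-1 replicates 1, 2 and 3. Myh6, the heart myosin gene, did not exceed 0.0941 CPM in any library, under the 3-read floor. The part of muscle content in the desmosome values was not tested.

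Squamous markers were measured in the same way. The 8 basal squamous markers, all negative in fold change, summed to 4592 to 16544 CPM in isotype and 3258 to 10964 CPM in DTA-1 libraries. The 9 differentiated squamous markers, also all negative, summed to 17571 to 39562 CPM in isotype and 5569 to 18388 CPM in DTA-1 libraries. None of these markers was at 0 in all libraries. The basal markers took 1.78%, 1.05% and 0.439% of counts in isotype and 1.06%, 0.291% and 0.408% in DTA-1 replicates 1, 2 and 3. Isotype replicate 3 was thus close to DTA-1 replicate 3 in this summed share, but not in the mean log2 CPM of the basal markers (8.21 against 7.11). Krt14, a large part of the sum, was lower in the isotype library of this pair (1505 against 2421 CPM). Every other basal marker was higher there, among them Trp63 (212 against 61.2 CPM) and Col17a1 (375 against 245 CPM). The differentiated markers took 1.89%, 4.05% and 3.78% in isotype and 1.78%, 0.498% and 0.57% in DTA-1 replicates 1, 2 and 3. The part of the epithelial share in the desmosome values was not tested. Isotype replicate 3 held stomach transcripts (Gkn1 at 456.8 CPM, against 1.88 CPM or less elsewhere). The median fold change of the 10 genes without that library was -0.83.

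**Figure D3:**
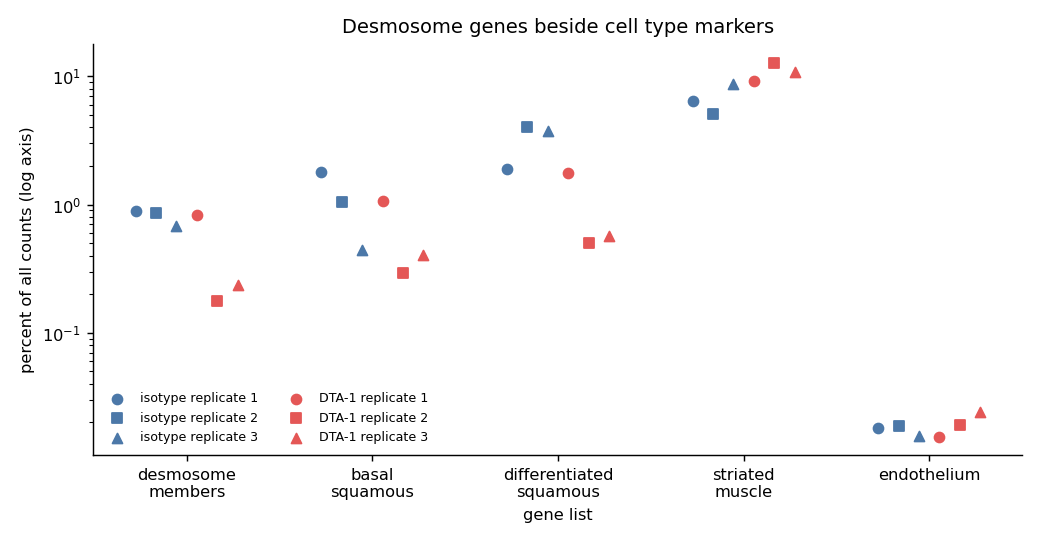
Share of all counts, in percent on a log axis, taken by the 10 desmosome genes and by marker lists of basal squamous cells, differentiated squamous cells, striated muscle and endothelium, 1 point per library. DTA-1 replicates 2 and 3 are lowest for the desmosome genes (0.178% and 0.237%) and highest for striated muscle.

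The 3 DTA-1 libraries were not alike. DTA-1 replicate 1 lay above all isotype libraries for 5 genes (Dsg1a, Dsg3, Dsc3, Pkp1 and Perp), within their range for the other 5, and below it for none. Of all genes tested, 22.5% lay below the isotype range in that library. DTA-1 replicate 2 was below all isotype libraries for 10 of 10 genes, against 34.5% of all genes, and DTA-1 replicate 3 likewise for 10 of 10, against 33.4%. The isotype mean was 2.75-fold (Jup) to 10.8-fold (Dsg1a) the level in DTA-1 replicate 2, and 2.55-fold (Jup) to 5.15-fold (Dsg2) that in DTA-1 replicate 3. No desmosome gene was free of overlap between groups, where 9.38% of all genes were lower with no overlap.

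Without DTA-1 replicate 1, the library that differs from its group, edgeR called 8 of the 10 genes lower, against 3.31% of all genes. The 8 were Dsg3, Dsc2, Dsc3, Pkp1, Pkp3, Dsp, Jup and Perp, with adjusted p of 0.0302 to 0.0492. Their fold changes in that fit ran from -2.02 ± 0.19 (SE) for Dsc3 to -1.40 ± 0.23 for Jup. Dsg1a (adjusted p = 0.0724) and Dsg2 (0.0949) did not pass in edgeR. DESeq2 called all 10 lower without that library, against 10.5% of all genes. This fit keeps 2 DTA-1 libraries and leaves out the one whose values are unlike theirs, so it describes those libraries and does not stand in for the test on all 6. Without DTA-1 replicate 2 or 3 the median fold change of the 10 genes was -0.46 and -0.51, and edgeR called 0 of 10.

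**Figure D4:**
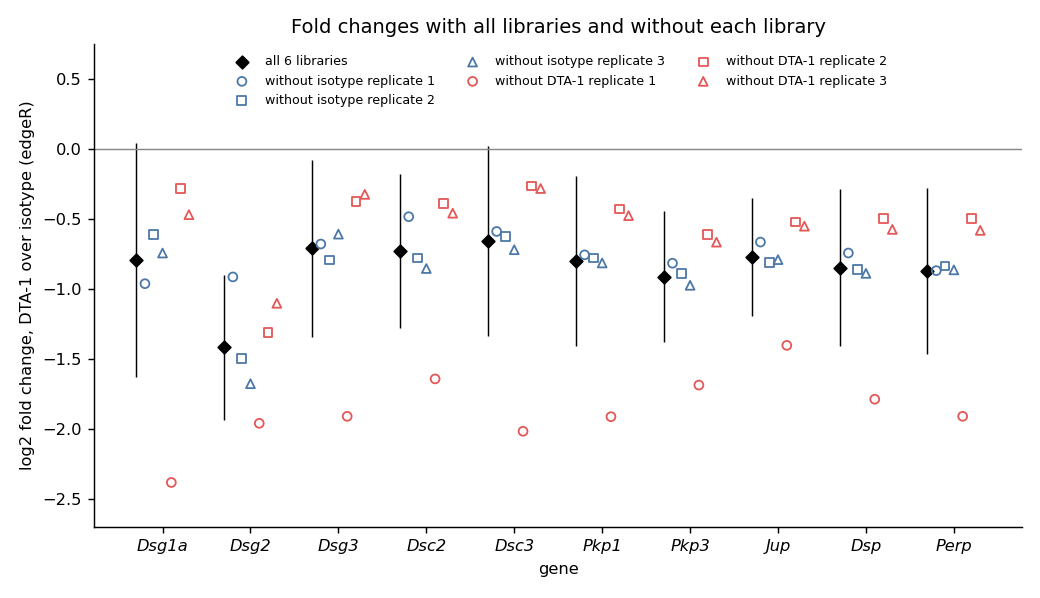
Log2 fold change of each desmosome gene in edgeR with all 6 libraries (black, bars are ± SE) and without each library in turn (open symbols). Leaving out DTA-1 replicate 1 moves the fold changes to between -2.38 and -1.40, and all fold changes shown are negative.

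Other desmosome genes that the list of 10 leaves out were examined next, and 7 of 9 passed the filter on low counts. Dsc1, a desmocollin of the uppermost layers, stood at 129, 275 and 287 CPM in isotype and 226, 27.2 and 45.9 CPM in DTA-1 replicates 1, 2 and 3. Dsg1b stood at 98.9, 149 and 162 CPM in isotype and 196, 25.7 and 32.9 CPM in DTA-1 replicates 1, 2 and 3, and shares sequence with Dsg1a. These cadherins repeated the split within the DTA-1 group, with fold changes of -1.21 ± 0.78 (SE) for Dsc1 and -0.69 ± 0.75 for Dsg1b. Dsg1c had 6 reads or fewer and Dsg4, a hair follicle desmoglein, 3 reads or fewer in each library, with 0 reads of either in DTA-1 replicates 2 and 3.

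Periplakin (Ppl) and envoplakin (Evpl), relatives of desmoplakin that anchor keratin to the envelope, stood below the isotype range in all 3 DTA-1 libraries. Ppl was at 335, 384 and 399 CPM in isotype and 269, 149 and 102 CPM in DTA-1 replicates 1, 2 and 3. Evpl was at 348, 280 and 264 CPM in isotype and 219, 90.4 and 79 CPM in DTA-1 replicates 1, 2 and 3. Cdsn, which encodes corneodesmosin of the desmosomes of the outermost cells, was at 335, 401 and 319 CPM in isotype and 267, 84.5 and 167 CPM in DTA-1 replicates 1, 2 and 3. In these 3 of the 7 tested genes the groups did not overlap, where 9.38% of all genes were lower with no overlap. The fold changes were -1.10 ± 0.35 (SE), -1.20 ± 0.40 and -1.02 ± 0.40 for Ppl, Evpl and Cdsn, with edgeR giving the same adjusted p of 0.39 for each. The log2 ratios of Ppl, Evpl and Cdsn to Dsp overlapped between groups, so a difference from the core genes in the whole comparison was not shown.

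The plakophilins Pkp2 and Pkp4 are less specific to stratified epithelium. Pkp2, the plakophilin of heart and simple epithelia, stood at 8.24, 6.86 and 10 CPM in isotype and 7.25, 10.2 and 14.3 CPM in DTA-1 replicates 1, 2 and 3. It was thus highest in DTA-1 replicates 2 and 3, where the other plakophilins Pkp1 and Pkp3 were lowest. Its fold change was 0.34 ± 0.31 (SE), with an adjusted p of 0.616 in edgeR. The endothelial markers, of which 5 of 5 had positive fold changes, summed to 162.4 to 166.5 CPM in isotype and to 160.1, 212 and 245.8 CPM in DTA-1 replicates 1, 2 and 3. The 8 markers of simple and gastric epithelium did not follow Pkp2. They summed to 229.9, 31.8 and 699.4 CPM in isotype and 20.7, 92.3 and 16.3 CPM in DTA-1 replicates 1, 2 and 3. In isotype replicate 3, 456.8 CPM of this sum was Gkn1. The part of either list in the Pkp2 values was not tested. Pkp4, a widely expressed relative, stood at 88.8, 95 and 79.2 CPM in isotype and 80.2, 59.9 and 80.8 CPM in DTA-1 replicates 1, 2 and 3, with a fold change of -0.25 ± 0.17 (SE).

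Adherens junctions tie actin, rather than keratin, between cells. All 11 listed genes had negative fold changes (median -0.82), none passed edgeR, and 7 of 11 were lower with no overlap, against 9.38% of all genes. DTA-1 replicate 1 lay below the isotype range for 8 of the 11, against 22.5% of all genes tested, and above it for none, against 21.6%. Ctnnd1, which encodes p120 catenin, stood at 68.6, 58.3 and 45.3 CPM in isotype and 40.9, 25.6 and 27.4 CPM in DTA-1 replicates 1, 2 and 3. Its fold change was -0.88 ± 0.24 (SE), and those of the actin linker Afdn and the adhesion receptor Nectin4 were -0.82 ± 0.25 and -1.24 ± 0.40. For each the adjusted p in edgeR was 0.39.

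Keratins form the filaments that desmosomes anchor. Of 11 listed keratin genes 9 had negative fold changes (median -0.60), and none passed edgeR. The suprabasal esophageal keratins Krt4 and Krt13 had fold changes of -1.84 ± 0.73 (SE) and -1.54 ± 0.62. Krt13 stood at 9921, 17323 and 20000 CPM in isotype and 10421, 2858 and 2920 CPM in DTA-1 replicates 1, 2 and 3, a split within the DTA-1 group like that of the desmosome genes. Krt15, a keratin of basal cells, stood at 415, 546 and 571 CPM in isotype and 195, 288 and 23.1 CPM in DTA-1 replicates 1, 2 and 3, with a fold change of -1.60 ± 0.76 (SE).

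Among 14 genes known to act on desmosomes, 11 had negative fold changes (median -0.55), and none passed edgeR. Klk7, a protease that degrades desmosomal proteins during shedding of surface cells, stood at 81, 67 and 42.6 CPM in isotype and 26.7, 13.1 and 27.2 CPM in DTA-1 replicates 1, 2 and 3. The groups did not overlap, where 9.38% of all genes were lower with no overlap. The fold change of Klk7 was -1.51 ± 0.35 (SE), with an adjusted p of 0.39 in edgeR. DESeq2 called Klk7 lower (adjusted p = 0.0222), the sole call in this list. That call was lost in DESeq2 without isotype replicate 1 (adjusted p = 0.122), isotype replicate 2 (0.217) or DTA-1 replicate 2 (0.133). Egfr, the receptor whose signaling loosens desmosomes, had a fold change of -0.63 ± 0.25 (SE), and the membrane scaffold gene Flot2 one of 0.45 ± 0.16. All DTA-1 libraries exceeded all isotype libraries in Flot2, where 8.6% of all genes were higher with no overlap.

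**Figure D5:**
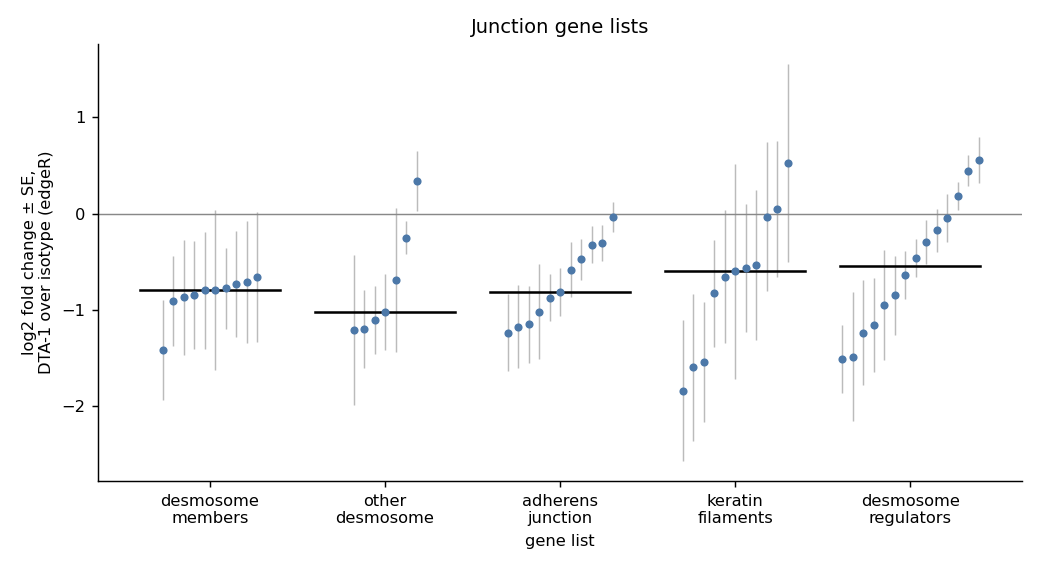
Log2 fold change (DTA-1 over isotype, edgeR, bars are ± SE) of each tested gene in 5 lists, with the median of each list as a black line. The 10 desmosome genes lie between -0.91 and -0.66 except Dsg2, at -1.42. The other desmosome, keratin and regulator lists spread on both sides of 0.

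The genes whose log2 CPM most resembled the mean of the 10 desmosome genes were Eif6, Slc25a13, Rps6ka4, Ptbp3 and Isg20l2, with Pearson r of 0.999, 0.998, 0.998, 0.997 and 0.996 over the 6 libraries. The libraries fall into 4 high and 2 low values, so r measures mostly that split, and it is given as a measure of likeness with no test. Slc25a13, a mitochondrial aspartate and glutamate carrier, stood at 13.8, 12.5 and 12.4 CPM in isotype and 15.4, 3.1 and 3.72 CPM in DTA-1 replicates 1, 2 and 3. Eif6, a factor of ribosome assembly, stood at 237, 215 and 206 CPM in isotype and 226, 100 and 106 CPM in DTA-1 replicates 1, 2 and 3. The 5 genes had fold changes between -0.80 (Slc25a13) and -0.44 (Isg20l2), and none passed edgeR.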

How the data were processed

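The values are raw read counts per Ensembl gene, 1 table per library, deposited by the authors. The submitters' processing notes name cutadapt 1.13, STAR, HTSeq 0.6.1p1, DESeq2 1.14.1 and the mm10 build, and the strand setting is not given in the sources used here. Gene symbols, positions and merged exon lengths came from GENCODE M21 (GRCm38).

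The filter on low counts was filterByExpr, and library sizes were scaled by TMM. The filter kept genes with the CPM of about 10 reads in at least 3 libraries, the size of a group, and 15 reads in total. Groups were compared in edgeR 4.0.16 (R 4.3.3), by robust quasi-likelihood with Benjamini-Hochberg adjustment at 0.05. DESeq2 1.42.0, limma-voom (limma 3.58.1), other scalings and filters, covariates, a replicate block and leaving out each library were alternatives. No pair of libraries agreed within sampling noise (noise alone gives a median chi-square of 0.455). The smallest median, 4.02, was between isotype replicate 3 and DTA-1 replicate 1, which differed from DTA-1 replicates 2 and 3 by 10.6 and 14.5.

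Genes named in the text are the 10 desmosome genes, every tested gene of the list of other desmosome genes, the 3 genes of smallest p in each other junction list, and the 5 genes (mean log2 CPM of at least 3) of highest Pearson r with the mean of the 10. Dsg1c and Dsg4, of the list of other desmosome genes, were named though not tested. Gkn1, Actc1, Myh6, Krt14, Trp63 and Col17a1 were named after their values were seen. The members and lists were chosen with earlier results of these data known.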

Additional observations from a re-analysis of the deposited data

How the results depend on the processing

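No gene passed with limma-voom, nor in edgeR with RLE size factors, library totals alone, the newer edgeR method or either other filter, and all of the 10 desmosome genes had negative fold changes there. Limma-voom moved some fold changes by over 1.5 times, to -1.53 for Dsg1a, -1.15 for Dsg3, -1.18 for Dsc3, -1.20 for Pkp1 and -1.28 for Dsg1b, and the median of the 10 to -1.17. Library totals alone moved the median of all genes from -0.03 to -0.19. DESeq2 called 137 genes lower and 43 higher. Leaving out each library in turn gave edgeR 0 to 539 genes lower and 0 to 62 higher, 0 to 8 desmosome genes called, a median fold change of the 10 from -1.91 to -0.46, and a difference of the epithelial and shared subsets from -0.23 to 0.14. The calls came from leaving out DTA-1 replicate 1.

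DESeq2 without isotype replicates 1, 2 and 3 called 160, 33 and 301 genes lower and 20, 23 and 595 higher, 1 of them a desmosome gene, without isotype replicate 3. Without DTA-1 replicates 1, 2 and 3 it called 1610, 39 and 32 lower and 839, 2 and 9 higher, with 10 desmosome genes called and a median of -1.88 without DTA-1 replicate 1. These DESeq2 refits were added after seeing the data. The cause of these changes was not tested.

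Same-numbered libraries did not deviate together (r of 0.017, -0.333 and -0.086). The labels do not say whether the numbers pair samples, and with so few libraries per group these r cannot settle it. With a replicate block edgeR called 0 genes, and DESeq2, added after seeing the data, called 212 lower and 30 higher, with Dsg2 (adjusted p = 0.00213) the 1 desmosome gene.

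With the muscle score as covariate, some fold changes turned sign: the median of the 10 genes was 0.11, Dsg1a 0.32, Dsc2 0.52, Dsc3 0.53, Pkp1 0.20, Pkp3 0.050, Dsp 0.16, Perp 0.052, Dsg1b 0.045, Pkp2 -0.13, Pkp4 0.15, Eif6 0.022, Slc25a13 0.17, Rps6ka4 0.10 and Ptbp3 0.057. Of the 10, Dsg2 (-0.020), Dsg3 (-0.023) and Jup (-0.044) stayed negative. So did Dsc1 (-0.56), Ppl (-0.86), Evpl (-0.43) and Cdsn (-0.17) among the other desmosome genes. With the squamous score the median was 0.71, Dsg1a 1.02, Dsg3 0.88, Dsc2 0.78, Dsc3 1.17, Pkp1 0.80, Pkp3 0.43, Dsp 0.62, Jup 0.36, Perp 0.64, Dsg1b 1.05, Dsc1 0.43, Pkp2 -0.54, Eif6 0.35, Slc25a13 0.79, Rps6ka4 0.33, Ptbp3 0.56 and Isg20l2 0.16. Of the 10, Dsg2 (-0.093) stayed negative. So did Pkp4 (-0.055), Ppl (-0.19), Evpl (-0.027) and Cdsn (-0.12) among the other desmosome genes. These covariates were measured on the same 6 libraries, edgeR called 0 genes with either, and the cause was not tested. Neither score overlapped between groups, so the fits cannot separate it from the treatment. Depth limits what can be said of Dsg1c, Dsg4 and Myh6, at 6 reads or fewer.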
